A study of Mus musculus with 8 samples.

Results

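The 10 genes described here encode Polycomb proteins and their ASXL partners: Ezh1, Ezh2, Eed, Suz12 and Jarid2 of Polycomb repressive complex 2 (PRC2), Rnf2, Bmi1 and Cbx7 of Polycomb repressive complex 1 (PRC1), and Asxl1 and Asxl2, the cofactors of the deubiquitinase Bap1. They were taken by symbol from the 52459 genes of the count and FPKM tables, and all 10 passed the filter on low counts that left 12137 genes for testing. RNA came from spleen cells positive for AE9a, a truncated RUNX1-RUNX1T1 fusion that causes acute myeloid leukaemia, in 8 moribund C57BL/6J mice. Every leukaemia, controls included, carried AE9a and a doxycycline-inducible hairpin against Tet2 from a retrovirus (genotype RTA shTet2), delivered to cKit+ marrow cells. Mice 16, 17 and 19, the Tet2 knockdown controls (n = 3), were secondary recipients on doxycycline that received PBS. Mice 21 and 23 were secondary recipients taken off doxycycline and given PBS (labelled Tet2-restored, n = 2). Mice 28 and 30 received ascorbate as secondary recipients on doxycycline (n = 2), and mouse 12 was the only primary recipient, also on doxycycline. Loss of doxycycline and the return of Tet2 cannot be told apart in this design. Primary recipients were lethally irradiated at 6 to 8 weeks of age, and 50000 leukaemia cells were given with 500000 support marrow cells, so that cells from wild-type marrow could also populate the spleen. The labels do not say whether the secondary recipients received cells of 1 primary leukaemia, nor give the ages of the secondary recipients or how AE9a-positive cells were separated.

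PRC2 methylates a lysine of histone H3 through Ezh1 or Ezh2, with Suz12 as scaffold and Eed as reader of the mark, and PRC1 adds ubiquitin to histone H2A through Rnf2 or its paralog Ring1. The ASXL proteins activate Bap1, which removes that ubiquitin. In blood, Ezh2 predominates in dividing progenitors and Ezh1 in resting cells, Bmi1 sustains stem cell self-renewal, and EZH2, ASXL1 and ASXL2 are mutated in human myeloid leukaemia, the ASXL genes also in leukaemia with RUNX1-RUNX1T1.

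Libraries held 18.1 to 34.2 M counts, and mitochondrial transcripts took 5.16% to 17.1% of them, with the highest shares in mice 28 (17.1%) and 23 (14.5%). Levels are given as CPM, counts scaled to a common total with TMM factors. Tet2, the hairpin's target, stood at 12.6, 12.8 and 13.4 CPM under PBS knockdown, at 14.1 CPM (95% Poisson interval 12.6 to 15.7) in mouse 21 and at 23.1 CPM in mouse 23, so that mouse 21 did not stand apart from the knockdown mice and its label is not borne out by this gene. Log2 fold changes of the members and of the named genes against PBS knockdown are therefore also given without mouse 21. For the restored label this leaves mouse 23 alone, so those values rest on 1 library and are given as effect sizes only. Of the 5 blast markers Kit, Cd34, Mpo, Runx1t1 and Ptprc, all were detected except for Cd34 at 0 counts in mouse 21, with a summed level of 166 to 420 CPM. Summed levels over the 8 libraries were 14.2 to 76.0 CPM for 10 macrophage markers, 1.06 to 6.09 CPM for 5 B cell markers, 0.398 to 2.32 CPM for 5 T cell markers and 0.363 to 42.2 CPM for 6 neutrophil markers. Those of 7 erythroid markers reached 3970 to 12100 CPM and those of 7 mast cell and basophil markers 444 to 1370 CPM.

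By edgeR's quasi-likelihood test none of the 10 genes passed an adjusted p of 0.05 in any of the 3 comparisons between groups of secondary recipients. The differences with the smallest p were in Asxl2 and the PRC2 core off doxycycline and in Asxl1 under ascorbate. Between the Tet2-restored label and PBS knockdown, 0 of 12137 genes passed (0.00%), between ascorbate and PBS knockdown 347 (2.86%), and between the Tet2-restored label and ascorbate 1 (0.00824%). DESeq2 called 16.1%, 11.0% and 3.66% of all genes in the same order, and with it 2 (Ezh2 and Asxl2), 0 and 1 (Asxl2) of the 10 members, so that 2 of 10 is near the share over all genes. The plot of all 10 genes by library shows the levels behind these tests.

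**Figure D1:**
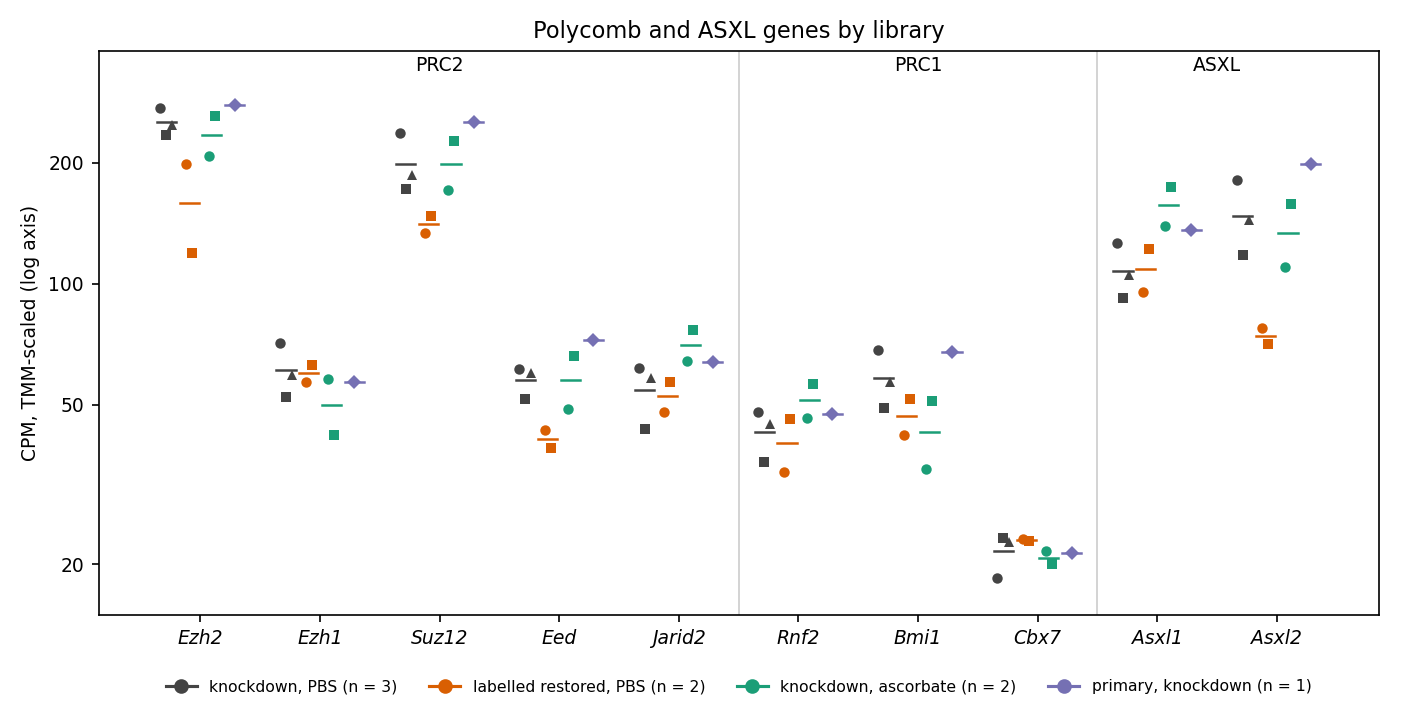
Level of each of the 10 genes in CPM (log axis) in the 8 libraries, coloured by group, with 1 point per mouse and a bar at the group mean. In the labelled restored group, Ezh2, Suz12, Eed and Asxl2 lie below all 3 PBS knockdown mice, with Asxl2 at 77.4 and 70.8 CPM, while Cbx7 stays between 18.5 and 23.3 CPM in all libraries.

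Per transcript length, Suz12 and Ezh2 were the most abundant of the 10 in the PBS knockdown mice, at 39.7 ± 6.99 and 37.4 ± 3.17 FPKM (SD, n = 3). They did not differ beyond their spread, and Suz12 was above Ezh2 in mice 16 and 19 but not in mouse 17. Eed (14.9 ± 1.41 FPKM), Bmi1 (14.5 ± 2.47) and Asxl1 (14.4 ± 2.33) came next with overlapping ranges. Rnf2 (10.3 ± 1.53 FPKM), Asxl2 (9.20 ± 1.99) and Ezh1 (8.11 ± 1.32) also overlapped in range, although each was above the next in all 3 mice. Jarid2, an accessory PRC2 subunit that helps to bring the complex to DNA, followed at 5.55 ± 1.0 FPKM, and Cbx7, a reader of methylated histone H3, was lowest at 3.29 ± 0.394 FPKM. In the labelled restored group Asxl2 (4.56 ± 0.226 FPKM, n = 2) stood at rank 9, below Jarid2 (5.30 ± 0.714) in both mice. Asxl1 stood at rank 3 in both arms, above Eed in every mouse, at 14.3 ± 2.69 against 10.5 ± 0.601 FPKM off doxycycline and 20.8 ± 3.18 against 14.8 ± 3.17 FPKM with ascorbate (n = 2 each). Between 354 and 9822 counts lay behind each level, which gives a 95% Poisson half-width of 1.98% to 10.6% of the value, for counting error only.

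The PRC2 core was examined first. Ezh2, the main methyltransferase, stood at 274, 234 and 248 CPM in PBS knockdown mice 16, 17 and 19, at 198 and 119 CPM in mice 21 and 23, at 208 and 261 CPM in ascorbate mice 28 and 30, and at 279 CPM in mouse 12. Both labelled restored mice lay below every PBS knockdown mouse, and mouse 23 lay far below mouse 21, while ascorbate mouse 28 lay below the knockdown range and mouse 30 inside it. The log2 fold change for the restored label was −0.67 (SE 0.22, 95% interval −1.17 to −0.18, edgeR adjusted p 0.0890). It was −1.08 without mouse 21 and −0.36 without mouse 23, each with 1 labelled restored library left. The value was −0.39 (edgeR adjusted p 0.214) with an offset that removes each library's trend with transcript length and GC content. DESeq2 gave −0.68 (adjusted p 0.0264), and edgeR without a filter on low counts gave −0.69 (0.00574). Under ascorbate it was −0.11 (SE 0.22, interval −0.60 to 0.37), a value that turned to 0.13 with the length and GC offset.

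Suz12, the scaffold, stood at 237, 172 and 186 CPM under PBS knockdown, 134 and 147 CPM off doxycycline, 171 and 226 CPM with ascorbate, and 252 CPM in mouse 12. Eed, which binds the methylated histone, stood at 61.3, 51.7 and 60 CPM under PBS knockdown, 43.1 and 39.0 CPM off doxycycline, 48.6 and 66.2 CPM with ascorbate and 72.2 CPM in mouse 12. For both genes the labelled restored mice were the 2 lowest of the 8 libraries, and unlike for Ezh2 those mice lay close together. Their log2 fold changes for the restored label were −0.50 (SE 0.19, edgeR adjusted p 0.128) for Suz12 and −0.49 (SE 0.19, adjusted p 0.122) for Eed. Without mouse 21 they were −0.43 and −0.56, and the length and GC offset gave −0.24 for Suz12 and −0.44 for Eed. Under ascorbate the values were −0.0064 (interval −0.43 to 0.42) for Suz12 and −0.014 (−0.43 to 0.40) for Eed, and both were above 0 with the length and GC offset (0.27 and 0.11).

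Ezh1, the less active methyltransferase of resting cells, did not share the pattern of Ezh2. It stood at 71.2, 52.1 and 59.1 CPM under PBS knockdown, 56.9 and 62.7 CPM in the labelled restored mice, 57.8 and 41.9 CPM with ascorbate and 56.9 CPM in mouse 12. Its log2 fold change for the restored label was −0.026 (SE 0.20, interval −0.48 to 0.42), or 0.17 with the length and GC offset and 0.052 without mouse 21. Under ascorbate it was −0.30 (SE 0.20, edgeR adjusted p 0.391), and −0.54 to −0.092 with a library left out, with mouse 30 the lowest of the 8 libraries. Jarid2 stood at 61.5, 43.4 and 58.2 CPM under PBS knockdown, 48.0 and 56.9 CPM off doxycycline, 64.2 and 76.5 CPM with ascorbate and 63.9 CPM in mouse 12. Both ascorbate mice were above the 3 PBS knockdown mice for Jarid2, with a log2 fold change of 0.36 (SE 0.20, edgeR adjusted p 0.289), or 0.22 to 0.49 with a library left out. Its value for the restored label was −0.054 (SE 0.20), or 0.25 with the length and GC offset and 0.072 without mouse 21.

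The ratio of Ezh2 to Ezh1 in FPKM, which sets the paralogs against each other within a library, was 4.29, 5.01 and 4.67 under PBS knockdown and 5.46 in mouse 12. It was 3.87 in mouse 21 and 2.11 in mouse 23, both below the knockdown range, with 4.02 for mouse 28 and 6.94 for mouse 30, on either side of it. For the restored label the difference in the mean log2 ratio was −0.70 (exact two-sided permutation p 0.200, the smallest that 3 against 2 libraries allow), and −0.26 without mouse 23. With the length and GC trend removed, an alternative chosen after seeing the data, mouse 21 was at 4.03 and lay inside the knockdown range of 3.92 to 5.10, while mouse 23 was at 2.19. Under ascorbate the difference was 0.18 (exact two-sided permutation p 0.8), and −0.21 without mouse 30.

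Of the ASXL pair, which serve the same deubiquitinase, Asxl2 had the largest log2 fold change of the 10 members against PBS knockdown in the TMM-scaled fit of all 7 libraries. Without mouse 21 that of Ezh2 was larger, and with the length and GC offset that of Asxl1 under ascorbate was. Asxl2 stood at 181, 118 and 144 CPM under PBS knockdown, 77.4 and 70.8 CPM in mice 21 and 23, 110 and 158 CPM in mice 28 and 30, and 198 CPM in mouse 12. The labelled restored mice were the 2 lowest of the 8 libraries and lay close together, and the ascorbate mice overlapped the knockdown mice. The log2 fold change for the restored label was −1.0 (SE 0.23, interval −1.51 to −0.49, edgeR adjusted p 0.0528). Its adjusted p was 0.0499 with DESeq2 size factors, 0.000921 with DESeq2 and 1.93e-05 without a filter on low counts. Without PBS knockdown mouse 16 the edgeR adjusted p was 0.160 and the value −0.82. The value was −0.94 without mouse 23 and −1.06 without mouse 21. Asxl2 is longer than 98.4% of the expressed genes, and log2 fold changes in this comparison were lower for longer genes (Spearman rho −0.38 over 12137 genes). With the length and GC offset its value was −0.46 (SE 0.14, adjusted p 0.0856).

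Asxl1 stood at 126, 92.3 and 105 CPM under PBS knockdown, 95.1 and 122 CPM off doxycycline, 139 and 174 CPM with ascorbate and 136 CPM in mouse 12. Both ascorbate mice lay above the PBS knockdown mice and the labelled restored mice overlapped them. Its log2 fold change under ascorbate was 0.53 (SE 0.19, interval 0.096 to 0.96, edgeR adjusted p 0.144), 0.35 without mouse 30 and 0.64 (adjusted p 0.0621) with the length and GC offset. For the restored label it was 0.0053 (SE 0.19), or 0.18 without mouse 21 and −0.19 without mouse 23. Asxl2 under ascorbate had a value of −0.15 (SE 0.22), or 0.15 with the length and GC offset.

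The FPKM ratio of Asxl1 to Asxl2 was 1.5, 1.68 and 1.56 under PBS knockdown and 1.47 in mouse 12. The labelled restored mice had 2.64 and 3.69, and the ascorbate mice had 2.73 and 2.36. Thus all 4 mice of the treatment arms lay above all 4 other mice, while by CPM the groups did not overlap for Asxl2 off doxycycline and for Asxl1 with ascorbate. The differences in mean log2 ratio were 0.98 for the restored label and 0.69 for ascorbate, each with an exact two-sided permutation p of 0.200, the smallest possible here, and both are taken against the same 3 control libraries. With the length and GC trend removed PBS knockdown mice had 1.83, 1.61 and 1.66, the labelled restored mice 2.21 and 3.14, the ascorbate mice 2.42 and 2.35, and mouse 12 had 1.88. The groups then still did not overlap, with differences of 0.63 and 0.49.

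**Figure D2:**
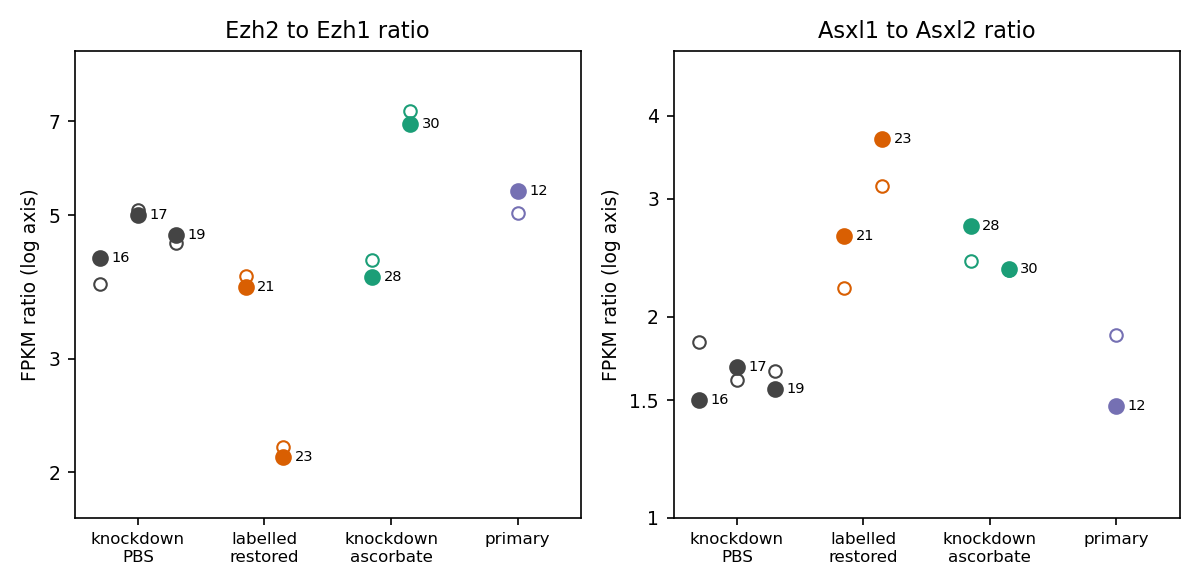
FPKM ratio (log axis) of Ezh2 to Ezh1 and of Asxl1 to Asxl2 in each library, with the mouse number beside each filled point and the ratio after removal of the length and GC trend as an open point. The Asxl1 to Asxl2 ratio is 1.5 to 1.68 in the PBS knockdown mice and 2.36 to 3.69 in the mice of both treatment arms, and the Ezh2 to Ezh1 ratio is lowest in mouse 23 at 2.11.

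Promoters are shown for Ezh2, Suz12, Asxl1 and Asxl2, which had an unadjusted p under 0.05 in a comparison with PBS knockdown and hold a match to one of the words searched. Eed, the other such member, holds none. They are the 250 bases before the start site in RefSeq's GRCm38.p6 table, in which all 10 members were matched. The windows of Ezh2, Jarid2 and Cbx7 lie inside the gene bounds given further below. Distances before the start for Ezh2 and Jarid2, and the lack of a match in Cbx7, therefore hold for the RefSeq start site only. Capitals mark any match on either strand to the RUNX core TGTGGT, to the E2F words TTTCCCGC, TTTGGCGC, TTTCGCGC and TTTGCCGC, or to the ETS word CCGGAAG, none of which is contained in another.
Ezh2 promoter, chr6:47595031-47595280, minus strand: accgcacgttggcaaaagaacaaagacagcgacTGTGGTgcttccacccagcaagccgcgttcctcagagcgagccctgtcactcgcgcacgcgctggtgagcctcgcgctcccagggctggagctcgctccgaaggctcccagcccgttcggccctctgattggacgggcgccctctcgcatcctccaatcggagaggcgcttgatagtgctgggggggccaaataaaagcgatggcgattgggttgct
Suz12 promoter, chr11:79992856-79993105, plus strand: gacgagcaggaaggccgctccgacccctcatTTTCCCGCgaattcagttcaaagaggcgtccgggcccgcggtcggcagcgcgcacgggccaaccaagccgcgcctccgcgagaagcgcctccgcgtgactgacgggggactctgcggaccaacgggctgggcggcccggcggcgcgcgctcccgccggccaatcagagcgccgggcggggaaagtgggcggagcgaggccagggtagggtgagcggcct
Asxl1 promoter, chr2:153345580-153345829, plus strand: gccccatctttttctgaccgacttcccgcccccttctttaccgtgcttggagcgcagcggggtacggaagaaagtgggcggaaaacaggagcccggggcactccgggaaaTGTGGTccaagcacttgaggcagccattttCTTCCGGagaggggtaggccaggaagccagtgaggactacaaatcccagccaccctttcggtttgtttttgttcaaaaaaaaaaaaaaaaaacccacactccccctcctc
Asxl2 promoter, chr12:3426607-3426856, plus strand: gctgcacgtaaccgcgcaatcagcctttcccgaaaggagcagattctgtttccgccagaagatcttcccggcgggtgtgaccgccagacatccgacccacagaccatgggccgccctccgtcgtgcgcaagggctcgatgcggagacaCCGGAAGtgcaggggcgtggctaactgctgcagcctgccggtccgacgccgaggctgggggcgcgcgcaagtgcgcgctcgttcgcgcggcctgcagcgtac
The RUNX core, the word bound by the DNA-binding domain that AE9a keeps from RUNX1, was found in Ezh2 (217 bases before the start), Asxl1 (140 bases) and Jarid2 (196 bases). These are 3 of 10 members, against 14% of 32851 promoters. A member counts with a match in any of its promoters, whereas the percentages are per promoter. Jarid2 has 2 promoters, and only the first holds the word. An E2F word was found in Suz12 alone (219 bases before the start), against 1.86% of promoters. The ETS word stood in Asxl1 and Asxl2, at 110 and 102 bases before the start, against 6.91% of promoters. The promoter windows of these 4 genes had a GC content of 63.6%, 73.6%, 54.4% and 67.6% in the order shown, against a median of 52.4%.

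Among the PRC1 members, Bmi1, which stimulates the ubiquitin ligase, stood at 68.3, 49.0 and 57.0 CPM under PBS knockdown, 42.0 and 51.5 CPM in the labelled restored mice, 34.5 and 51.1 CPM with ascorbate and 67.7 CPM in mouse 12. Each treatment arm had 1 mouse below the knockdown range and 1 inside it. The log2 fold changes were −0.32 (SE 0.22, edgeR adjusted p 0.368) for the restored label and −0.45 (SE 0.23, adjusted p 0.259) for ascorbate, and the length and GC offset gave −0.11 and −0.18. With a library left out they ran from −0.48 (without mouse 23) to −0.17 (without mouse 21) and from −0.77 (without mouse 30) to −0.19 (without mouse 28). Bmi1 made up 35.9%, 32.4% and 33.6% of the summed FPKM of the 6 Pcgf paralogs under PBS knockdown, 27.8% and 35.2% off doxycycline, 29.0% and 32.4% under ascorbate and 32.7% in mouse 12. These shares show it as an abundant PCGF gene beside Pcgf6, which stood at 8.85 to 22.56 FPKM.

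Rnf2, the ubiquitin ligase, stood at 47.9, 35.9 and 44.7 CPM under PBS knockdown, 34 and 46.1 CPM off doxycycline, 46.3 and 56.2 CPM with ascorbate and 47.3 CPM in mouse 12. Groups overlapped for both arms, with a log2 fold change of −0.099 (SE 0.21), or 0.12 with the length and GC offset and 0.11 without mouse 21, for the restored label. Under ascorbate the value was 0.25 (SE 0.20), or 0.54 (edgeR adjusted p 0.0959) with the offset and 0.096 without mouse 30. Its share of the summed FPKM of Rnf2 and its paralog Ring1 ran from 47.0% in mouse 17 to 62.7% in mouse 30.

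Cbx7, a chromodomain subunit that favours stem cell self-renewal, kept a narrow range. It stood at 18.5, 23.3 and 22.8 CPM under PBS knockdown, 23.1 and 22.9 CPM in the labelled restored mice, 21.6 and 20 CPM with ascorbate and 21.3 CPM in mouse 12. The 7 secondary libraries and the primary one all lay between the lowest and highest PBS knockdown mice. Its log2 fold changes were 0.093 (interval −0.32 to 0.50) and −0.058 (−0.47 to 0.35), and the former was 0.094 without mouse 21. Among the 5 canonical Cbx paralogs it made up 11.9% to 14.4% of the summed FPKM under PBS knockdown, 16.1% and 17.2% off doxycycline, and 15.8% and 13.6% with ascorbate. Cbx6 was the most abundant of them at 7.59 to 14.23 FPKM, and Cbx2 was at 0 counts in 6 of 8 libraries.

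Counted over the 10 members, 4 (Ezh2, Eed, Suz12 and Asxl2) lay lower without overlap in the labelled restored mice than in the PBS knockdown mice and 0 lay higher, against 24.5% and 24.9% of all genes tested. The same 4 had an unadjusted p under 0.05, against 15.2% of genes in that direction. The median log2 fold change of the members was −0.21, against −0.0020 over all genes. The members were longer than 51.5% to 98.4% of the expressed genes, and log2 fold changes here were lower for longer genes (Spearman rho −0.38). With the length and GC offset, Ezh2, Eed, Suz12 and Asxl2 were at −0.39, −0.44, −0.24 and −0.46, and Bmi1 at −0.11. Ezh1, Jarid2, Asxl1, Rnf2 and Cbx7 were then above 0, at 0.17, 0.25, 0.19, 0.12 and 0.14. Under ascorbate 2 members (Jarid2 and Asxl1) lay higher without overlap and 0 lower, against 22.4% and 23.5% of genes, and 1 (Asxl1) had an unadjusted p under 0.05, against 10.7% in that direction. The median of the members was −0.036 there, against −0.012 over all genes. The shares of higher members under ascorbate were near those of the background, while the 0 lower members lay below the 23.5% of genes.

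**Figure D3:**
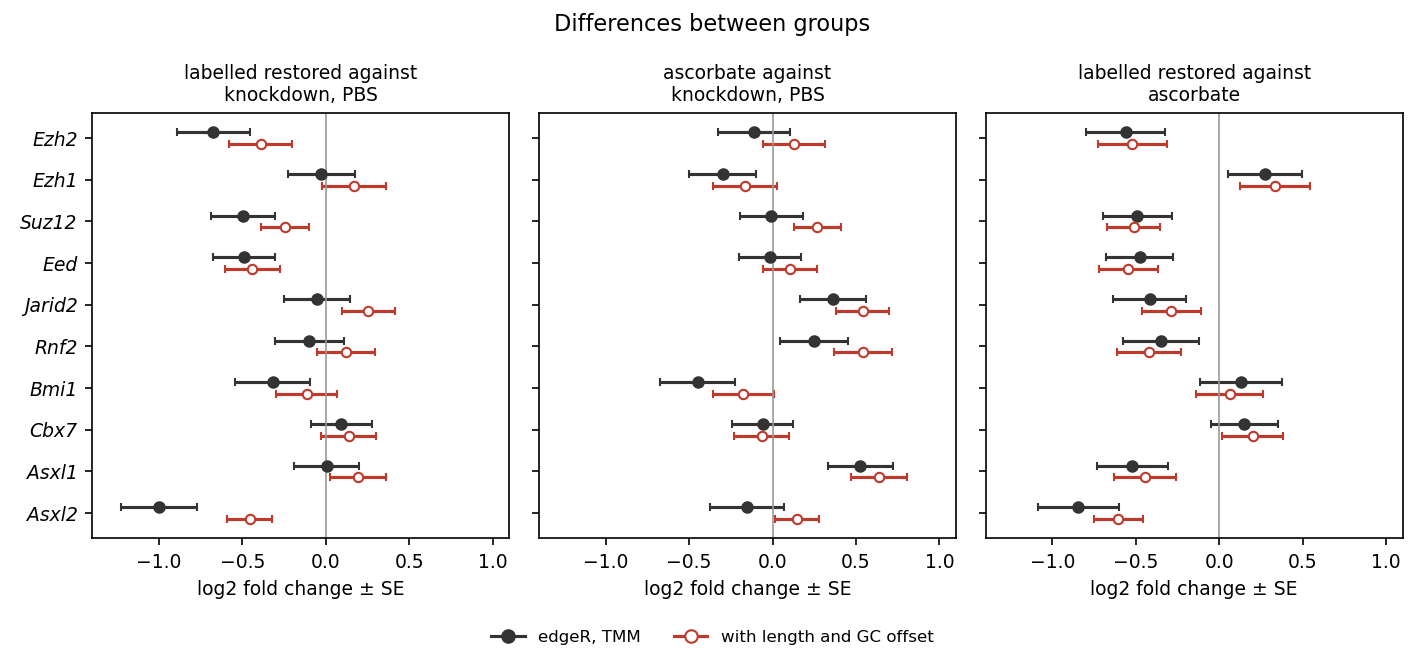
Log2 fold change with its SE (edgeR) of the 10 genes in the 3 comparisons of secondary recipients, filled for the TMM-scaled fit and open for the fit with a length and GC offset. Asxl2 has the lowest value for the restored label (−1.0, or −0.46 with the offset) and Asxl1 the highest under ascorbate (0.53, or 0.64).

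The arms were also compared directly, since they share the PBS knockdown controls in the comparisons above. Between the Tet2-restored label and ascorbate, 7 of 10 members (Ezh2, Eed, Suz12, Jarid2, Asxl1, Asxl2 and Rnf2) lay lower without overlap and 1 (Cbx7) higher, against 22.1% and 22.8% of all genes. Of them, 5 had an unadjusted p under 0.05, against 7.35% of genes in that direction, and 0 had an adjusted p under 0.05 by edgeR. The values were −0.85 (SE 0.24, adjusted p 0.186) for Asxl2, −0.56 (SE 0.24, 0.285) for Ezh2, −0.52 (SE 0.21, 0.275) for Asxl1, −0.49 (SE 0.21, 0.288) for Suz12 and −0.48 (SE 0.20, 0.287) for Eed. With the length and GC offset they were −0.60, −0.52, −0.44, −0.51 and −0.55, and without mouse 21 they were −0.91, −0.97, −0.36, −0.43 and −0.55. Without mouse 30 they were smaller, at −0.55, −0.39, −0.35, −0.27 and −0.23, and Ezh2 was at −0.25 without mouse 23. The median over the members was −0.45, against 0.015 over all genes.

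Cell cycle genes and those of other cells were measured beside these differences. The summed level of 11 proliferation genes came to 4650, 4230 and 3920 CPM under PBS knockdown, 3640 and 2340 CPM off doxycycline, 3190 and 4130 CPM with ascorbate and 4950 CPM in mouse 12, with mouse 23 lowest as for Ezh2. Macrophage markers summed to 39.0, 65.0 and 76.0 CPM under PBS knockdown, 33.2 and 14.2 CPM off doxycycline and 27.3 and 27.5 CPM with ascorbate, with Cd163 at 0 in mice 23 and 30. Mast cell and basophil markers summed to 573, 444 and 600 CPM under PBS knockdown and to 1110, 1370, 773 and 1060 CPM in mice 21, 23, 28 and 30. Erythroid markers, with the largest sums, varied within each group. They came to 6510, 12100 and 4950 CPM under PBS knockdown, 10700 and 7160 CPM off doxycycline and 9900 and 5230 CPM with ascorbate. The part of any of these in the members' differences was not tested, and in bulk RNA fewer cells of a type cannot be told apart from less RNA per cell.

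In the primary leukaemia, a single library without a replicate, 6 of 10 members (Ezh2, Eed, Suz12, Jarid2, Asxl1 and Asxl2) lay above the range of the 3 secondary PBS knockdown mice and 0 below it, against 31.8% and 29.7% of 13024 genes. None differed by more than 2-fold from their mean, against 11.9% of genes. The largest log2 ratios were 0.42 for Asxl2, 0.35 for Suz12, 0.33 for Asxl1 and 0.32 for Eed. Mouse 12 also had the deepest library (34.2 M counts). Its trend with transcript length had a rho of 0.29, against 0.35, −0.33 and −0.058 in PBS knockdown mice 16, 17 and 19. The part of this trend in the members' positions was not tested.

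Over the 8 libraries some of the members fell into sets with like profiles. Ezh2, Eed, Suz12 and Asxl2 had pairwise Pearson r of log2 CPM from 0.761 (Ezh2 and Suz12) to 0.975 (Eed and Asxl2). Jarid2, Asxl1 and Rnf2 had r of 0.921 to 0.954 with each other, while Asxl1 and Asxl2 had 0.429. Bmi1 lay outside both sets. Its r was 0.399 (Ezh2) to 0.692 (Suz12) with the former and 0.0937 (Asxl1) to 0.327 (Rnf2) with the latter. Ezh1 had r of −0.215 with Ezh2 and at most 0.278 with any member, and Cbx7 was negative against all other members, down to −0.757 with Suz12. These are descriptions over 8 libraries in 4 groups that share depth, RNA quality and group differences, and they carry no test. Each library's trend with transcript length, with rho from −0.44 in mouse 21 to 0.35 in mouse 16, was not removed from them.

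**Figure D4:**
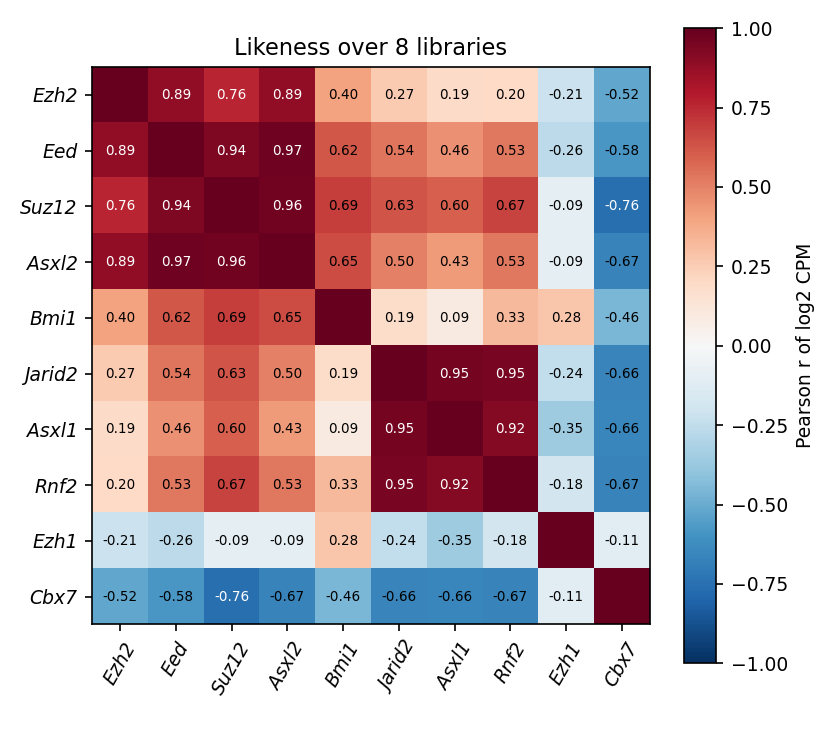
Pearson r of log2 CPM between each pair of the 10 genes over the 8 libraries, from −1 (blue) to 1 (red). Ezh2, Eed, Suz12 and Asxl2 form 1 block (0.761 to 0.975), Jarid2, Asxl1 and Rnf2 another (0.921 to 0.954), and Ezh1, Bmi1 and Cbx7 lie outside both.

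Among 10942 other named genes, the 2 most like each member over the 8 libraries were Spidr (Pearson r 0.998) and Cpsf2 (0.996) for Ezh2, Dock10 (0.996) and Sgpp1 (0.992) for Asxl2, Ppp4r3b (0.995) and Mgat2 (0.994) for Suz12 and Dido1 (0.991) and Npepps (0.990) for Eed. They were Tex30 (0.990) and Pias1 (0.984) for Jarid2, Gatad2b (0.984) and Clpx (0.983) for Asxl1, and Pias2 and Stau1 (0.978 each) for Rnf2. For Bmi1 they were Aebp2 (0.995), itself an accessory PRC2 gene, and Ttbk2 (0.994). For Ezh1 they were Isca1 (0.987) and Golph3l (0.926), and for Cbx7 they were Cfap77 (0.961) and Dapk3 (0.960).

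Other genes of these complexes were counted from lists. Over all genes, 15.2% had an unadjusted edgeR p under 0.05 with a lower value for the restored label. The share was 10.7% for higher values under ascorbate and 7.35% for lower values between the arms. No share is given for the other directions, so counts by unadjusted p in them, here and below, stand without a background and are not read as a result. DESeq2 called 16.1%, 11.0% and 3.66% of all genes, as above. Of 8 tested further PRC2 genes, 0 passed by edgeR in any comparison, against 2 (Phf1 and Mtf2), 1 (Mtf2) and 0 by DESeq2 for the restored label, ascorbate and the arms compared directly. By an unadjusted edgeR p under 0.05 they were 2 (1 lower), 1 (lower) and 2 (1 lower). Their median log2 fold change was −0.27 for the restored label and 0.0065 for ascorbate. The smallest p belonged to Phf1, an accessory subunit, at 2.99, 5.13 and 5.88 CPM under PBS knockdown and 9.03 and 18.7 CPM in mice 21 and 23 (1.57, SE 0.37, adjusted p 0.0542), and under ascorbate to Mtf2, a related subunit (−0.84, SE 0.29, adjusted p 0.129), which was at −0.49 with the length and GC offset. Phf1 shares up to 1370 exonic bases with a gene on the other strand, so its value is uncertain. The log2 fold change of Phf1 was 2.0 without mouse 21, and as low as 0.95 with another library left out. Of 20 tested further PRC1 genes, 0 passed by edgeR in either arm, against 6 and 2 by DESeq2. At an unadjusted edgeR p under 0.05 there were 10 (8 lower) and 5 (all lower). For the restored label 12 lay lower without overlap and 3 higher, against 24.5% and 24.9% of all genes. Under ascorbate 9 lay lower without overlap and 3 higher, against 23.5% and 22.4%. For the restored label 15 were below 0 with a median of −0.43, and for ascorbate 16 with −0.37. Over all genes 50.2% and 51.0% were below 0. These counts and medians are without the length and GC offset. Phc3, a polyhomeotic subunit, had the smallest p for the restored label (42.8 ± 9.91 against 21.5 ± 0.626 CPM; −1.0, SE 0.22, edgeR adjusted p 0.0520). Phc3 was at −0.96 without mouse 21 and at −0.47 (edgeR adjusted p 0.105) with the length and GC offset. Phc3 passed by DESeq2 (0.00113) and without a filter on low counts (0.000268). Under ascorbate Mga, a factor of a variant PRC1, had the smallest p (−0.91, SE 0.26, edgeR adjusted p 0.0853), or −0.61 (0.0651) with the offset and 0.0103 by DESeq2.

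Bap1, the enzyme that the ASXL proteins activate, stood at 94.6, 95.1 and 82.9 CPM under PBS knockdown, 84.0 and 87.4 CPM off doxycycline and 120 and 110 CPM under ascorbate. Of the 8 genes of its complex beside the ASXL members, 0 passed by edgeR in either arm, against 4 and 1 by DESeq2. At an unadjusted edgeR p under 0.05 there were 5 (all lower) and 2 (1 lower). For the restored label 7 were below 0 (median −0.61), led by Hcfc1, a transcriptional coregulator (379 ± 39.3 against 252 ± 6.5 CPM). Its value was −0.59 (SE 0.15, edgeR adjusted p 0.0628), or −0.56 without mouse 21. Under ascorbate 4 of the 8 were below 0 (median 0.041), and the smallest p belonged to Kdm1b, a histone demethylase (−0.86, SE 0.27, adjusted p 0.108). Of 12 genes that oppose Polycomb, the trithorax and demethylase list, 0 passed by edgeR in either arm, against 3 and 1 by DESeq2. At an unadjusted edgeR p under 0.05 there were 6 (5 lower) and 4 (3 lower), and the medians were −0.27 and 0.037. Usp16, another deubiquitinase of histone H2A, had the smallest p in both (−0.91 with edgeR adjusted p 0.0542 off doxycycline, −0.73 with 0.0901 for ascorbate). Usp16 was at −0.44 and −0.36 with the length and GC offset, at −0.91 for the restored label without mouse 21, and passed by DESeq2 in both (0.00241 and 0.0230). In the direct comparison the genes with the smallest p were Rbbp7 (−0.42), Pcgf1 (0.77), Mbd5 (−1.15, adjusted p 0.128) and Ash2l (−0.46), none past the threshold by edgeR, while Mbd5 passed by DESeq2 (0.00273).

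Of 19 loci known as Polycomb targets, 6 were tested, and the other 13 were below the filter on low counts. Hoxa5, Hoxa10, Hoxd9 and Gata4 were at 0 counts in all 8 libraries. Cdkn2a, the locus by which Bmi1 is best known, was at 0.282, 0.123 and 0.0359 CPM under PBS knockdown, 0.165 and 0.101 CPM off doxycycline, 2.08 and 0.251 CPM with ascorbate and 1.02 CPM in mouse 12, and mouse 28 alone stood out among the secondary recipients. Pax6, a developmental transcription factor, was the 1 locus to pass in the main edgeR fit, under ascorbate, where DESeq2 called 2 (Pax6 and Hoxb4). Without a filter on low counts, edgeR tested 14 loci. Under ascorbate it then called 3 higher (Cdkn2a, Hoxb4 and Pax6) and 1 lower (Cdkn2b). Between the arms it called Cdkn2a and Pax6, both lower for the restored label. No locus passed for the restored label against PBS knockdown by edgeR or DESeq2 with all 7 libraries. Pax6 stood at 180, 142 and 166 CPM under PBS knockdown and rose under ascorbate to 338 and 307 CPM (0.98, SE 0.20, edgeR adjusted p 0.0414). Its adjusted p was 0.0815 to 0.199 when any 1 of the 5 libraries compared was left out, with values of 0.88 to 1.06. Pax6 was at 157 and 243 CPM in mice 21 and 23, and the direct difference between the arms was −0.68 (adjusted p 0.209). Hoxb4 had the smallest p for the restored label (6.28 ± 0.488 against 10.6 ± 3.09 CPM). Its value was 0.76 (SE 0.26, edgeR adjusted p 0.0942), 1.04 without mouse 21 and as low as 0.42 with another library left out. Of the 11 proliferation genes 0 passed by edgeR in either arm, against 3 and 1 by DESeq2. At an unadjusted edgeR p under 0.05 there were 4 (all lower, against 15.2% of all genes in that direction) and 3 (2 lower). Below 0 were 10 for the restored label and 9 for ascorbate. Ccne2, which drives entry into S phase, led by p in both (−1.34 with adjusted p 0.0520 off doxycycline, −1.0 with 0.0868 for ascorbate). Ccne2 passed off doxycycline by DESeq2 (0.000327), with DESeq2 size factors (0.0487) and without a filter (8.50e-06), and for ascorbate by DESeq2 (0.0115). With the length and GC offset 0 of the 11 genes passed off doxycycline. The value of Ccne2 there was −1.72 without mouse 21, and up to −1.05 with another library left out. In the direct comparison Mcm5 had the smallest p (−0.49, edgeR adjusted p 0.254).

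All 10 members are protein-coding genes of GRCm38: Ezh1 and Suz12 lie on chromosome 11 (101191115 to 101226463 and 79993106 to 80034123), Asxl1 and Bmi1 on chromosome 2 (153345829 to 153404007 and 18677018 to 18686629), Ezh2 on chromosome 6 (47530139 to 47595341) and Asxl2 on chromosome 12 (3426857 to 3506852). Eed lies on chromosome 7 (89954654 to 89980983), Jarid2 on chromosome 13 (44729474 to 44921643), Rnf2 on chromosome 1 (151458004 to 151500955) and Cbx7 on chromosome 15 (79915807 to 79971119). Of them 7 share 100 to 261 exonic bases with a gene on the opposite strand, such as Trmt1l for Rnf2 and Apobec3 for Cbx7, and without a stated strand setting reads in those stretches cannot be told apart.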

How the data were processed

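RNA-seq of 8 libraries, 1 per mouse, was analysed. Raw gene-level counts and FPKM values with 2 decimals are as the authors deposited them. STAR, featureCounts and DESeq2 are named with GRCm38 in the submitters' processing notes, and their versions, settings and strand are not given in the sources used here. The ratio of counts to FPKM gave scaling factors equal to those DESeq2 computes, to 3 digits in each library. As deposited, 26 symbols read as calendar dates, none of them a member.

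Counts were tested with edgeR 4.0.16 (R 4.3.3; TMM, filterByExpr with a minimum count of 10, robust quasi-likelihood fit) in 1 fit of the 7 secondary libraries in 3 groups, with Benjamini-Hochberg adjustment over 12137 genes and a threshold of 0.05. The primary library was described only. FPKM served for levels between genes, and log2 ratios of paralogs were compared by exact permutation. On data simulated for ascorbate against PBS (11887 genes), 59.0% of 2-fold and 95.0% of 4-fold changes were recovered, and 13 unchanged genes were called. The simulation held no length or GC trend and did not cover the restored label.

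Alternatives were DESeq2 1.42.0, its size factors in edgeR, no filter on low counts, an offset for transcript length and GC content (mgcv 1.9.3; GENCODE vM21 transcripts), each library left out, and for ratios a pseudocount of 0.1 FPKM or raw counts. The named genes are the 10 members, from each other list the members past the threshold (at most 4) or else the one with the smallest p, the 2 genes most like each member, and Tet2. Members and lists were chosen with earlier results of these data known.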

Additional observations from a re-analysis of the deposited data

How the results depend on the processing

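For the restored label, the count of genes called by edgeR rose from 0 to 367 with DESeq2 size factors, to 1951 with the DESeq2 test and to 2207 without a filter on low counts, and was 0 to 1692 with a library left out, the highest without mouse 21. The members called were 1 (Asxl2), 2 and 2 (Ezh2 and Asxl2), and 0 to 1 (Ezh2, without mouse 21). For ascorbate the count of 347 became 1339, with the DESeq2 test, 1498 without a filter and 572 after the length and GC offset, and ran from 2 (without mouse 28) to 796 (without mouse 21), with 0 members in each. For the arms compared directly the count of 1 became 444, 582 and 3 in the same order and ran from 0 to 5, with 1 member (Asxl2) under the first and second of these. For the restored label Asxl2, at rank 334 by p, had an edgeR adjusted p of 0.0528 in the main fit, just above the threshold. With DESeq2 size factors in edgeR its adjusted p was 0.0499. The cause of these changes in count was not tested.

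In the tested comparisons signs changed only for members with small estimates. For the restored label these were Asxl1 at −0.0090 without a filter, and Ezh1, Jarid2 and Rnf2 at 0.17, 0.25 and 0.12 after the length and GC offset. With a library left out Ezh1 ran from −0.13 to 0.11, Jarid2 from −0.20 to 0.072, Asxl1 from −0.19 to 0.18 and Rnf2 from −0.34 to 0.11. Under ascorbate Suz12 was 0.0031 both with DESeq2 size factors and with DESeq2, and Ezh2, Eed, Suz12 and Asxl2 took values of 0.13, 0.11, 0.27 and 0.15 after the offset. With a library left out Ezh2 ran from −0.29 to 0.047, Eed from −0.26 to 0.20, Suz12 from −0.23 to 0.19 and Asxl2 from −0.45 to 0.093. Between the arms Bmi1 ran from −0.13 to 0.45. The Ezh2 to Ezh1 difference ran from −1.14 to −0.26 for the restored label and from −0.21 to 0.58 for ascorbate, and the Asxl1 to Asxl2 difference from 0.74 to 1.23 and from 0.58 to 0.79. Of the values for single genes in the tested comparisons, 458 kept direction and side of the threshold, 29 changed sign, 36 passed newly and 5 no longer passed (all for Pax6). The untested ratio of Cbx7 in the primary library to PBS knockdown went from −0.017 to 0.00080 with DESeq2 size factors. No paired analysis was possible because mouse numbers do not recur between groups. For Cbx7 the counting half-width alone was 7.23% to 10.6% of the level, while other members' levels were counted more precisely in most libraries.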
